A study of Danio rerio with 8 samples.

Results

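Recoverins, phosducins and the RGS9 complex are regulators that shape and end the response of rods and cones to light, and their transcripts were compared between retinas of zebrafish *bbs2* mutants and of wild-type siblings. The 10 genes were taken by their symbols from a table of read counts for 32520 genes. They are 4 recoverin genes (*rcvrn2*, *rcvrn3*, *rcvrna* and *rcvrnb*), 2 phosducin genes (*pdca* and *pdcb*) and 4 genes of the RGS9 complex (*rgs9a*, *rgs9b*, *rgs9bp* and *gnb5b*). Each symbol stood for 1 row of the table. The mutants were homozygous *bbs2* -/- fish and the controls were *bbs2* +/+ fish of the same heterozygous crosses, with both sexes used and an age of 6 months in each group. All fish had spent 16 to 20 h in the dark before death, and the pigment epithelium was mostly left behind at dissection. There were 4 samples per genotype, each of 2 pooled retinas, so n counts samples. The mutants came from a single *bbs2* line, whose allele is not named in the sources used here.

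In a photoreceptor, light-activated opsin switches on the G protein transducin, and the signal lasts until opsin and transducin are both switched off. Recoverins bind calcium and, in the dark, hold back the opsin kinases, which would otherwise mark opsin for shutoff. Phosducins bind the beta-gamma subunits of transducin and keep them from rejoining the alpha subunit. The RGS9 complex speeds the hydrolysis of GTP by the alpha subunit of transducin and so sets how fast the response ends. It consists of RGS9 itself, the partner Gβ5, which stabilises it, and a membrane anchor, R9AP, which holds it at the outer segment. Zebrafish carry extra copies of several of these genes, and rods and cones can use different copies. In zebrafish retinas, *rcvrna* (also named rcv1a) has been described in rods and ultraviolet cones, and *rcvrn2* (rcv2a) and *rcvrn3* (rcv2b) in all types of cones.

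Gene counts totalled 6279179 to 8442827 per wild-type library and 7289910 to 11496801 per mutant library. Levels are given in CPM, which are counts divided by the size of the library after scaling by trimmed means (TMM). The quasi-likelihood test of edgeR was fitted to the 17144 genes with enough counts, and its p-values were adjusted over these genes. A gene was called where this adjusted p, the false discovery rate (FDR), was under 0.05. A positive log2 fold change (log2FC) means a higher level in mutants. The *bbs2* transcript itself stood at 39.8 to 45.5 CPM in wild-type libraries and at 27.3 to 28.8 CPM in mutant libraries. All 23 cone markers and all 17 rod markers of the lists used were expressed above the filter. Lens genes summed to 1.25 to 3.88 CPM and red blood cell genes to 0.98 to 8.43 CPM in any library. All 14 markers of the pigment epithelium rose in mutants, with a summed level of 96.1 to 236 CPM in wild-type and 1355 to 1959 CPM in mutant libraries. All 14 microglia and macrophage markers in the table also rose, from 257 to 335 CPM to 549 to 658 CPM summed. The part of these other cells in the results below was not tested.

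Of the 10 genes, 5 fell in *bbs2* mutants, 1 rose, 3 were not called and 1 had too few counts to be tested. The phosducin gene *pdcb* fell most, to 0.205 of its wild-type level, followed by *rgs9a* (0.409), *rcvrn3* (0.567), *rcvrn2* (0.648) and *gnb5b* (0.662). In these 5 genes the values of the mutants lay wholly below those of the wild-type siblings. Among all tested genes 28.1% were called, 13.0% lower and 15.2% higher in mutants, and the values of the genotypes did not overlap for 13.9% in the lower direction. The median log2FC of the 9 tested genes was -0.59, against -0.01 over all tested genes. The copies *pdca*, *rgs9b* and *rcvrna*, the close relatives of genes that fell, were not called. In whole retinas, fewer cells of a type and less RNA per cell cannot be told apart.

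**Figure D1:**
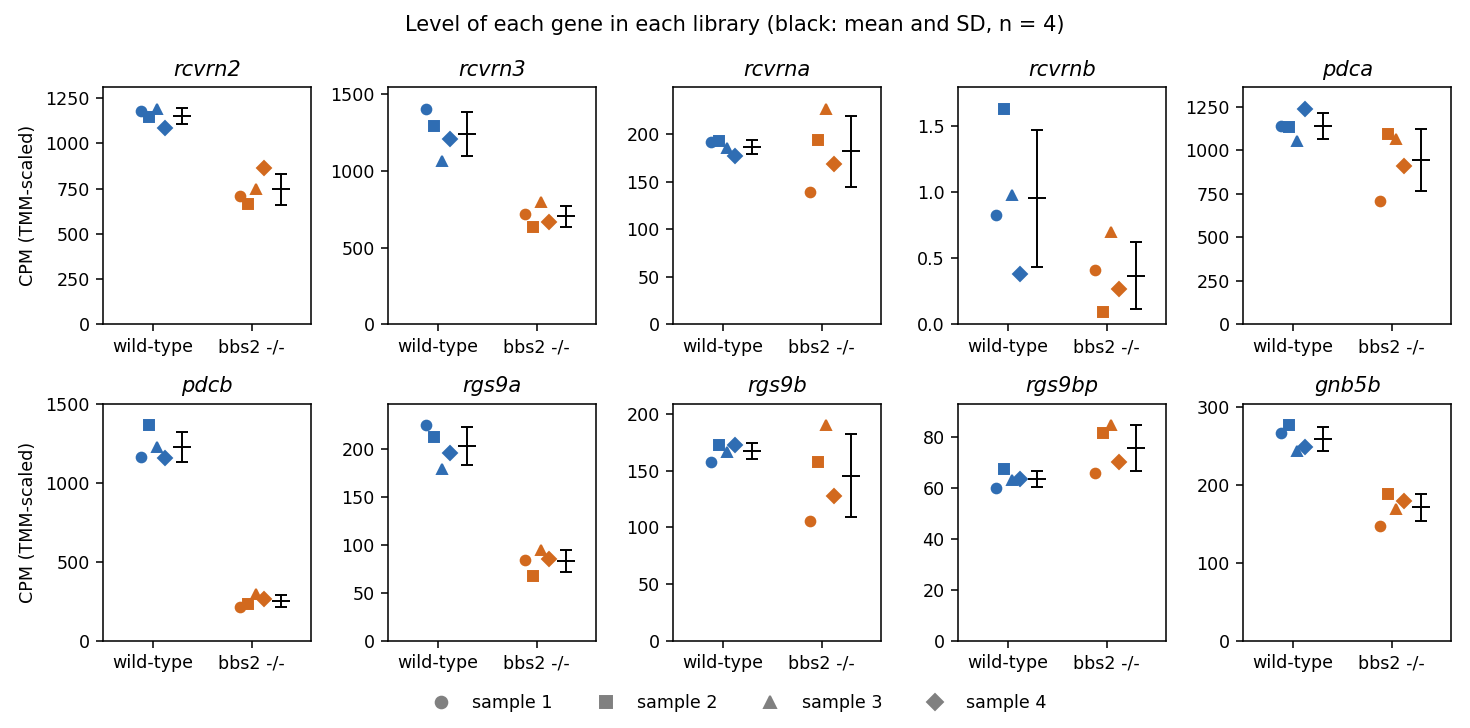
Level of each of the 10 genes in each of the 8 libraries, in TMM-scaled CPM on axes that start at 0, with a symbol per sample and the mean and SD of 4 samples in black. The genotypes are separate for *rcvrn2*, *rcvrn3*, *pdcb*, *rgs9a* and *gnb5b* and overlap for the other genes, and *rcvrnb* stays below 2 CPM.

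*rcvrn2* and *rcvrn3* fell, while *rcvrna* was not called. *rcvrn2* stood at 1179, 1147, 1191 and 1087 CPM in wild-type samples 1 to 4 and at 709, 664, 747 and 864 CPM in mutant samples 1 to 4. The highest mutant library, number 4, lay well under the lowest wild-type library (log2FC -0.63, SE 0.08, edgeR adjusted p = 2.59e-05). *rcvrn3* stood at 1402, 1289, 1063 and 1204 CPM in wild-type and at 717, 633, 794 and 667 CPM in mutant retinas. All 4 mutants were again below all wild-type siblings (log2FC -0.82, SE 0.09, edgeR adjusted p = 6.98e-06).

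*rcvrna* stood at 192, 193, 185 and 177 CPM in wild-type and at 139, 194, 227 and 168 CPM in mutant libraries. The mutants thus lay on both sides of the wild-type values, with an SD of 37.2 CPM against 7.34 CPM. Its log2FC was -0.04, with a 95% interval from -0.30 to 0.23 (edgeR adjusted p = 0.868). The remaining recoverin gene, *rcvrnb* (rcv1b), was near the limit of detection, with raw counts of 5, 13, 8 and 3 in wild-type and 4, 1, 8 and 2 in mutant libraries. These 29 and 15 counts per group did not pass the filter on low counts. Without the filter, its log2FC was -1.32 (edgeR adjusted p = 0.236, and 0.226 with DESeq2), so no difference was detectable at this depth.

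The phosducin genes parted more widely than the other pairs of copies compared. *pdcb* (also named pdcc) stood at 1167, 1367, 1228 and 1162 CPM in wild-type retinas and at 214, 232, 299 and 263 CPM in those of mutants. Even the highest mutant library lay far below the lowest wild-type library (log2FC -2.29, SE 0.10, edgeR adjusted p = 9.71e-10). *pdca* (also named pdcr) stood at 1135, 1135, 1055 and 1237 CPM in wild-type and at 708, 1090, 1065 and 908 CPM in mutant retinas. Mutants 2 and 3 lay within the wild-type range, and mutants 1 and 4 lay below it. The log2FC of *pdca* was -0.27 with a 95% interval from -0.53 to -0.01, and it was not called (edgeR adjusted p = 0.111). Without mutant 2 it was called (log2FC -0.35, edgeR adjusted p = 0.0493; the range over all alternatives was 0.0493 to 0.225).

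Of the RGS9 copies, only *rgs9a* was called. *rgs9a* stood at 224, 212, 179 and 196 CPM in wild-type siblings and at 84.4, 67.3, 95.05 and 84.9 CPM in mutants. The highest mutant value, 95.05 CPM, was well under the lowest wild-type value of 179 CPM (log2FC -1.29, SE 0.10, edgeR adjusted p = 3.49e-07). *rgs9b* stood at 158, 173, 167 and 173 CPM in wild-type and at 106, 158, 190 and 128 CPM in mutant libraries. As for *rcvrna*, the mutants were spread around the wild-type values, with mutant 3 the highest of all 8 and mutant 1 the lowest (log2FC -0.20, 95% interval -0.55 to 0.15, edgeR adjusted p = 0.395). Without mutant 3, *rgs9b* was called lower (log2FC -0.34, edgeR adjusted p = 0.0348; the range over all alternatives was 0.0348 to 0.681).

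*gnb5b*, which encodes the partner Gβ5, fell as well. It stood at 267, 277, 243 and 248 CPM in wild-type siblings and at 148, 189, 169 and 180 CPM in mutants. It fell in each mutant library (log2FC -0.59, SE 0.08, edgeR adjusted p = 4.70e-05). *rgs9bp* carries the symbol of the anchor R9AP, but the table holds a further row of that symbol in capitals, and which of them is the anchor gene could not be told from the sources used here. *rgs9bp* stood at 60.02, 67.4, 62.9 and 63.6 CPM in wild-type and at 65.8, 81.5, 84.4 and 70.2 CPM in mutant libraries. Mutant 1 lay below wild-type 2, and the other mutants lay above all wild-type values. The rise was small and close to the threshold (log2FC 0.25, 95% interval 0.06 to 0.44, edgeR adjusted p = 0.0476). The call ended with DESeq2 (adjusted p = 0.0659), with limma-voom (0.0648), in edgeR without robust fitting (0.0550) and when any wild-type library, mutant 2 or mutant 3 was left out (0.0543 to 0.140), with adjusted p-values of 0.00558 to 0.140 over all its alternatives.

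The row in capitals, *RGS9BP* (ENSDARG00000086756), was not among the 10 genes. It was chosen for description after its values were seen. It stood at 140, 178, 121 and 111 CPM in wild-type and at 67.4, 61.1, 65.3 and 58.7 CPM in mutant libraries, lower in all 4 mutants (log2FC -1.12, SE 0.13, edgeR adjusted p = 4.42e-05). Per transcript length it was the more abundant of these rows, with 86.4 ± 2.19% (SD, n = 4) of their summed TPM in wild-type siblings and 71.5 ± 2.79% in mutants. The rows differed in direction, with the rise of *rgs9bp* close to the threshold, and their summed level was 419 ± 85.5 TPM in wild-type and 236 ± 21.1 TPM in mutant retinas (SD, n = 4 each). Whether transcripts of the anchor rose or fell is therefore not settled by the symbol.

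Ratios within a library do not depend on how libraries are scaled to each other, and 6 of them were compared by an exact permutation test, two-sided, over 70 arrangements of 4 against 4, with adjustment over the 6 ratios. The ratio of *pdca* to *pdcb* counts moved most. On the log2 scale it was -0.04, -0.27, -0.22 and 0.09 in wild-type and 1.73, 2.23, 1.83 and 1.79 in mutant libraries. The phosducin copies were thus near equal in counts in wild-type retinas and the ratio was 4.01-fold higher in mutants (exact permutation p = 0.0286, adjusted p = 0.0429, 4 of 4 mutants above all wild-type values).

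The log2 ratio of *rgs9a* to *rgs9b* went from 0.27 ± 0.18 (SD, n = 4) in wild-type siblings to -0.79 ± 0.40 in mutants, with no overlap. That of *rgs9a* to *rgs9bp* went from 1.67 ± 0.17 to 0.13 ± 0.28, and that of *rgs9a* to *gnb5b* from -0.36 ± 0.08 to -1.05 ± 0.32. Each of these 3 ratios had an exact permutation p = 0.0286, which is the smallest that 4 against 4 can give, and an adjusted p = 0.0429. The level of *rgs9a* was thus lower relative to each of these 3 genes in mutants. The 3 ratios share *rgs9a* and are not independent. Their adjusted p, and that of *pdca* to *pdcb*, depends on how many ratios reached the smallest p. The row *RGS9BP*, more abundant than *rgs9bp* and itself lower in mutants (log2FC -1.12, against -1.29 for *rgs9a*), was not among the 6 ratios. The shift of *rgs9a* against *rgs9bp* need not hold for that row. The ratio of *rcvrn2* to *rcvrn3* was -0.10 ± 0.18 in wild-type and 0.08 ± 0.20 in mutant retinas, a difference within the spread (exact permutation p = 0.257, adjusted p = 0.257). That of *rcvrna* to *rcvrnb* rests on the few counts of *rcvrnb* (7.67 ± 0.75 and 8.97 ± 1.01, exact permutation p = 0.0857, adjusted p = 0.103).

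**Figure D2:**
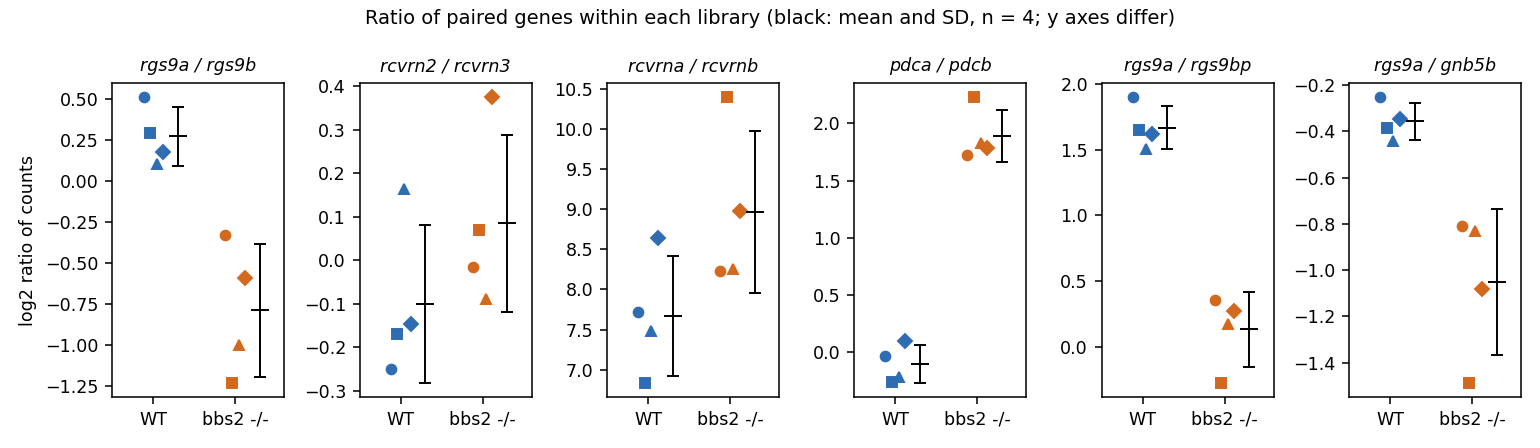
Log2 ratio of raw counts of 2 genes within each library, for 6 pairs on separate y axes, with a symbol per sample and the mean and SD of 4 samples in black. The genotypes do not overlap for the 3 ratios of *rgs9a* and for *pdca* to *pdcb*, whose mean rose from -0.11 to 1.89, and overlap for both recoverin ratios.

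Levels of different genes were compared in TPM, which take gene length into account. In wild-type retinas *rcvrn2* (1031 ± 69.96 TPM, SD, n = 4) and *pdcb* (972 ± 99.3) were highest, with overlapping ranges. *pdca* (706 ± 26.6) and *rcvrn3* (637 ± 66.1) followed, also overlapping, and then *rcvrna* (304 ± 18.5) and *gnb5b* (227 ± 15.8). *rgs9a* (86.4 ± 7.71) was above *rgs9b* (62.8 ± 3.54), whose range overlapped that of *rgs9bp* (55.8 ± 3.79), and *rcvrnb* was last (2.89 ± 1.61). The RGS9 copies thus lay below both phosducins and below the recoverins other than *rcvrnb*.

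In mutants the order changed at several places. *pdcb* (201 ± 17.0 TPM) dropped below *pdca*, *rcvrn3* and *rcvrna* (297 ± 34.3). *rgs9a* (35.9 ± 5.37) dropped below *rgs9bp* (67.0 ± 2.99) and *rgs9b* (54.6 ± 8.91), the last 2 with overlapping ranges. *rcvrn2* (679 ± 98.6) and *pdca* (587 ± 69.1) overlapped at the top, followed by *rcvrn3* (367 ± 41.0), whose range overlapped that of *rcvrna*. *rgs9bp* ran from 51.8 to 60.3 TPM in wild-type and from 63.7 to 70.7 TPM in mutant libraries, without overlap, whereas its CPM overlapped between genotypes. The TPM were used as deposited, without TMM scaling. The share of all genes without overlap in TPM was not counted, so this adds nothing to the call of *rgs9bp*.

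Summed over copies, recoverin transcripts went from 1975 ± 113 to 1344 ± 95.6 TPM (SD, n = 4 each). Phosducin transcripts went from 1678 ± 97.8 to 788 ± 68.0 TPM, and RGS9 transcripts from 149 ± 7.16 to 90.6 ± 7.72 TPM. The makeup of each family was described by shares of TPM, which were not tested themselves. *pdcb* made up 57.8 ± 2.80% of phosducin transcripts in wild-type and 25.6 ± 2.89% in mutant retinas. *rgs9a* made up 57.8 ± 2.99% of RGS9 transcripts in wild-type siblings and 39.8 ± 6.68% in mutants, from 32.6% in mutant 2 to 47.5% in mutant 1. Among recoverins, *rcvrna* went from 15.4 ± 0.35% to 22.3 ± 3.76%, while *rcvrn2* was at 52.2 ± 2.32% and 50.3 ± 4.14%. *rcvrn3* was at 32.2 ± 2.57% and 27.3 ± 2.30%, with overlapping ranges. No ratio of *rcvrna* to *rcvrn2* or *rcvrn3* was tested.

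**Figure D3:**
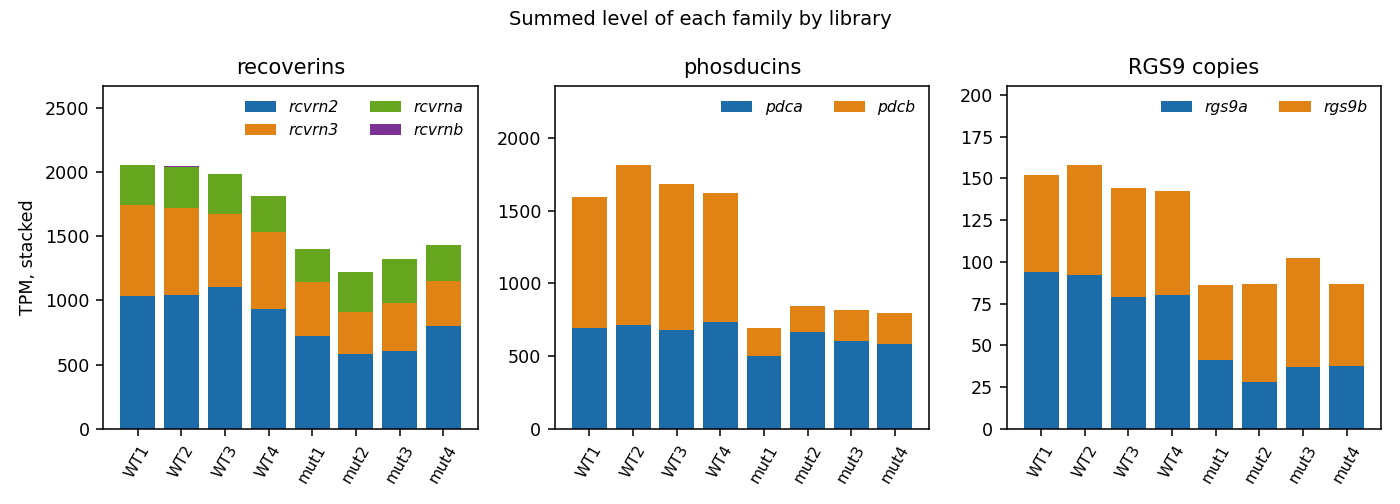
Stacked TPM of the copies of each family in the 4 wild-type (WT1 to WT4) and 4 mutant (mut1 to mut4) libraries. The phosducin total fell from 1678 to 788 TPM on average, mostly in *pdcb*, and the RGS9 total from 149 to 90.6 TPM, mostly in *rgs9a*.

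The 9 tested genes were set beside markers of cones and rods. Cone markers had a median log2FC of -1.30, with 19 of 23 called lower and 2 called higher. Rod markers had a median of 0.13, with 2 of 17 called lower and 3 called higher. The rod counts lay near the shares over all tested genes, which were 13.0% lower and 15.2% higher. *pdcb* fell further than 19 of the 23 cone markers. *rgs9a* lay near their middle, with 13 below it and 10 above. *rcvrn2* and *gnb5b* fell less than 19 cone markers each and *rcvrn3* less than 18, yet each of these 3 lay below 16 of the 17 rod markers. *rcvrna* lay above 6 of the rod markers, *rgs9b* and *pdca* above 3 each, and *rgs9bp* above 13. Listed markers of bipolar cells had a median log2FC of -0.16, of amacrine and ganglion cells -0.21, of horizontal cells -0.32 and of Müller glia -0.11. In which cells the 9 genes changed was not tested.

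**Figure D4:**
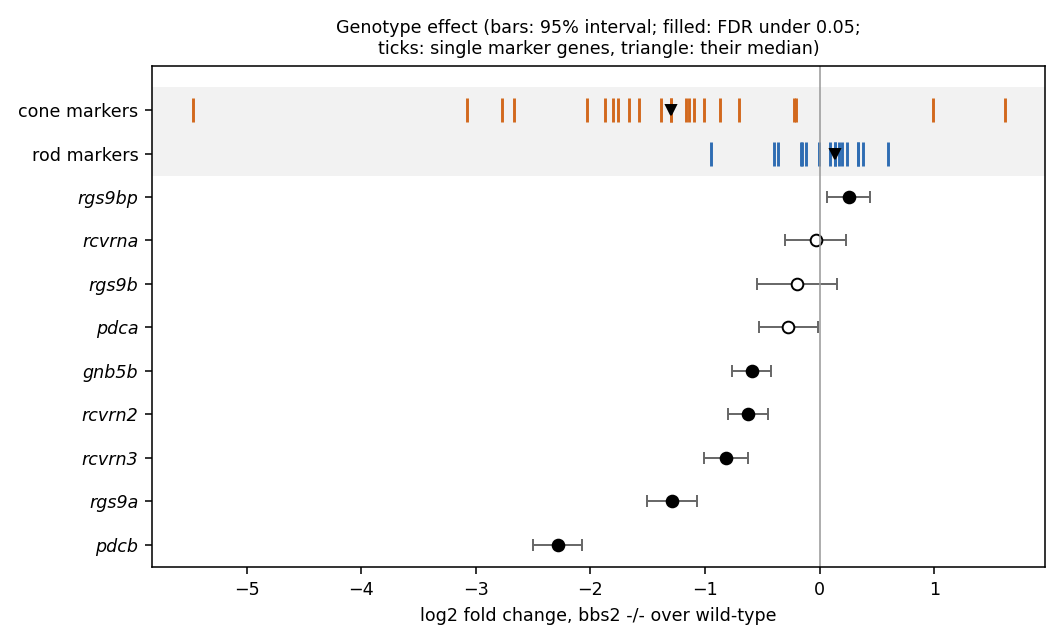
Log2 fold change of the 9 tested genes, mutant over wild-type, with 95% intervals and filled points where the FDR was under 0.05, beside 17 rod and 23 cone markers drawn as single ticks with their median as a triangle. *pdcb* and *rgs9a* lie below every rod marker. *rcvrn2*, *rcvrn3* and *gnb5b* lie above only 1 of them each, and *rcvrna*, *rgs9b*, *pdca* and *rgs9bp* lie further up among them.

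Mutant libraries also differed from each other in rod transcripts. The mean log2 CPM of the rod markers was 9.18, 9.70, 9.77 and 9.51 in mutants 1 to 4, and 9.45 to 9.61 in wild-type siblings. In CPM, *rcvrna*, *rgs9b* and *rgs9bp* placed the 4 mutants in the same order as the rod markers did, lowest in mutant 1 and highest in mutant 3. The rod means of mutants 2 and 3 were close. The TMM factors of mutants 1 to 4 (1.086, 1.027, 1.003 and 1.029) ran in the reverse order. In TPM, *rcvrna* and *rgs9b* kept the order, but *rgs9bp* was lowest in mutant 4 (63.7 TPM) and highest in mutant 2 (70.7 TPM). How many of all genes share this order was not counted. The mean of the cone markers was 7.84, 7.73, 7.92 and 7.998 in mutants 1 to 4. Of the 10 genes only *rcvrn2* followed that order, and *rgs9a* differed from it only in the order of mutants 3 and 4. The cone means of mutants 3 and 4 were close. Their order depends on the cone marker *opn1mw1*, which stood at 7.61, 1.93, 1.83 and 18.3 CPM in mutants 1 to 4. The match of *rcvrn2* therefore does not single it out. The order of 4 libraries is a description, since the genes share the same libraries.

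Other genes of the shutoff and feedback of the light response were counted from lists chosen by function. Among all tested genes, 13.0% were called lower and 15.2% higher in mutants. Several listed genes, such as *gnat2*, *gngt2b*, *arr3a*, *arr3b* and *gngt1*, are also among the cone or rod markers above. The counts are therefore not separate from those of the markers. Of 8 opsin kinase and arrestin genes, 5 fell and none rose, with a median log2FC of -1.08 (none rose in edgeR at an unadjusted p under 0.05 or with DESeq2 either). The cone arrestin genes *arr3a* (-1.01 ± 0.07, SE) and *arr3b* (-1.88 ± 0.15) had the smallest p-values of those that fell. The other 3 that fell are opsin kinase genes. Of 9 transducin genes, which phosducin and RGS9 act on, 4 fell and 1 rose, with a median of -0.24. The cone alpha subunit gene *gnat2* (-1.58 ± 0.08) and the gamma subunit gene *gngt2b* (-1.30 ± 0.13) fell, and the rod gamma subunit gene *gngt1* rose (0.38 ± 0.11). Of 8 tested genes of guanylate cyclases and their calcium-sensing activators, 5 fell and 1 rose, with a median of -1.10.

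Relatives of the 10 genes and helpers of their assembly were counted in the same way, beside 13.0% lower and 15.2% higher among all tested genes. Of 9 other genes of the R7 RGS family and its partners, *rgs6* rose (0.42 ± 0.12, SE), *rgs7a* fell (-0.52 ± 0.11) and 7 were not called, with a median log2FC of -0.14, so that the share called was no higher than the 28.1% of all tested genes. *gnb5a*, the other Gβ5 copy, was among those not called (-0.27 ± 0.14, edgeR adjusted p = 0.180). Of 13 neuronal calcium sensor genes, to whose family recoverin belongs, 9 fell and 1 rose, with a median of -0.31, and with library totals in place of TMM 4 fell and 2 rose. *ncaldb* (-1.42 ± 0.09) and *hpcal4* (-0.60 ± 0.09) fell, and *ncalda* rose (0.85 ± 0.18). Phosducin-like proteins and the CCT chaperonin include known helpers in the folding of Gβ subunits. Of 11 rows counted for them, 10 rose and none fell, with a median of 0.69 (none fell in edgeR at an unadjusted p under 0.05 or with DESeq2 either). The chaperonin subunit genes *cct4* (0.92 ± 0.09) and *cct8* (0.79 ± 0.08) had the smallest p-values, and the phosducin-like gene *pdcl* rose by 0.19 ± 0.07. All other rises were of chaperonin rows, with *cct2* present in more than a single row. The phosducin-like gene *txndc9* was not called (-0.04 ± 0.10, edgeR adjusted p = 0.80).

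For each gene, the 3 genes of most similar profile were sought among 13569 other genes. They had the smallest root mean square difference of centred log2 CPM over the 8 libraries. A close profile includes a similar log2FC, as for *gnb5b* (-0.59), whose neighbours had -0.53, -0.58 and -0.64. It does not by itself show a shared cell type. The profile of *pdcb* was nearest to those of *nin* (0.13 log2 units), *pde6ha* (0.18), the inhibitory subunit of the cone phosphodiesterase, and *slc25a25a* (0.19). *rgs9a* was nearest to *drd4b*, a dopamine receptor gene (0.09), *camk2d1* and *aqp9b* (0.10 each). *rcvrna* was nearest to *cngb1a* (0.06), which encodes a rod channel subunit, to *gpsm2* (0.07) and to *PLEKHB1* (0.07). *rgs9b* was nearest to *PLEKHB1* (0.09), the opsin kinase gene *grk1a* (0.09) and the cyclase gene *gucy2f* (0.10). *pdca* was nearest to *MCUR1* (0.04), *pde6b* (0.06), which encodes a rod phosphodiesterase subunit, and *tpi1a* (0.07).

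The remaining 4 genes had the following neighbours. *rcvrn2* was nearest to *sh3pxd2aa* (0.08), *chchd3a* and *lrit2* (0.09 each), and *rcvrn3* to *rasgrf2b*, *igf2bp2b* and *fsd1l* (0.08 each). *gnb5b* was nearest to *SLC16A7* and *map2* (0.06 each) and *traf3ip1* (0.07), and *rgs9bp* to *ywhabl*, *nek7* and *map2k2a* (0.07 each). *pdcb* had no neighbour as close as those of the other 8 genes, whose nearest lay at 0.04 to 0.09. It also had the largest log2FC in size (-2.29). Because the distance includes the log2FC, its wider distance cannot be told apart from the size of its fall.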

How the data were processed

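RNA of dissected retinas was depleted of ribosomal RNA, made into stranded libraries and read as pairs of 100 nucleotides. The authors aligned reads with STAR 2.7.5a to GRCz11 (Ensembl release 104) and deposited raw counts per gene and TPM. Neither the tool behind the TPM nor the strand setting of the counting is given in the sources used here. Overlapping genes and near-identical copies therefore have uncertain counts. The deposited normalized counts, and the authors' own comparison (fold changes, p-values and FDR by DESeq2 1.30.1 in R 4.0.4, per the labels), were not used.

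Counts were tested with edgeR 4.0.16 in R 4.3.3 (quasi-likelihood test, robust fitting, TMM, minimum count of 10 in the default filter, genotype as the only term, Benjamini-Hochberg adjustment over all tested genes), with limma 3.58.1 and DESeq2 1.42.0 as alternatives. The filter removed *rcvrnb* alone of the 10 genes. The steps were tested on simulated data. SE is the log2FC divided by the root of the F statistic. Ratios were taken after adding 0.5 to each count, and similar profiles were sought on log2 CPM (prior count 2) among genes averaging at least 1 on that scale, leaving out names of clones. From each pathway list, up to 2 called genes in each direction by smallest p are named. Apart from these, *gnb5a*, *pdcl*, *txndc9* and *cct2* were named after their values were seen. Of the list symbols, those missing from the table were left out. The genes and lists were chosen with earlier results of these data known. Within each genotype, libraries varied beyond sampling noise (chi-square per degree of freedom 5.44 to 12.6). Alternative gene names are those of RefSeq (GRCz12tu), in which all 10 genes were found by symbol.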

Additional observations from a re-analysis of the deposited data

How the results depend on the processing

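The falls of *pdcb*, *rgs9a*, *rcvrn3*, *rcvrn2* and *gnb5b* were called in each of the 18 alternatives, with log2FC of -2.37 to -2.19, -1.35 to -1.19, -0.89 to -0.72, -0.70 to -0.53 and -0.65 to -0.50. The number of genes called lower was 5 or 6. The rise of *rgs9bp* was 0.25 with DESeq2, 0.25 with limma-voom and 0.25 without robust fitting (adjusted p = 0.0659, 0.0648 and 0.0550), none of them called, and 0.21 to 0.31 with a library left out. The number of genes called higher was therefore 0 in these 3 fits and 0 to 1 with a library left out, against 1. With a library left out, *rgs9b* ran from -0.34 to -0.074 and *pdca* from -0.35 to -0.16. *rcvrna* ran from -0.15 to 0.07 and was never called.

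The labels number the samples 1 to 4 in each genotype, but same-numbered samples did not deviate together (correlations of -0.07 to 0.06 over 4 pairs). With the replicate block, a paired exact test over 4 pairs cannot go below p = 0.125, so that the ratios -1.06 (*rgs9a* to *rgs9b*), 2.00 (*pdca* to *pdcb*), -1.54 (*rgs9a* to *rgs9bp*) and -0.70 (*rgs9a* to *gnb5b*), given as differences of log2 ratios, did not pass (adjusted p = 0.15), and the block changed no call of the 9 genes. With a library left out these differences were -1.21 to -0.91, 1.89 to 2.07, -1.61 to -1.40 and -0.78 to -0.55. Without wild-type 1 or wild-type 2 their adjusted p was 0.0857 for the first and 0.0571 for the others. The count of transducin genes that rose was 2 with library totals and 2 with the replicate block, of cyclase genes 0 with the block, and of calcium sensor genes 2 with either, while calcium sensor genes that fell numbered 4 with library totals. With library totals 71.3% of all called genes were higher in mutants, against 54.0%, and the median log2FC over all genes was 0.09.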

Other observations

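A second symbol of the pathway lists, *PDCL3*, is also written in capitals in the table and was therefore not matched. This phosducin-like gene stood at 10.4 to 14.8 CPM in wild-type and at 12.4 to 18.1 CPM in mutant libraries and was not called (log2FC 0.22, SE 0.15, edgeR adjusted p = 0.335). In the 10 genes and 6 ratios, no sample stood apart from the other 3 of its genotype by Dixon's test, in 32 groups of 4 samples.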
